A study of Saccharomyces cerevisiae with 30 samples.

Results

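The subject is how far the transcriptome of the yeast mutant yaf9 W89A and that of its wild type differ in the step between time points 5 and 1 of the yeast metabolic cycle. The libraries are the 3 time point 1 and 3 time point 5 libraries of each strain, 12 of the 30 libraries of the series, and no measured value was used to choose them. Every gene was eligible, and 6124 of the 7127 features in the count table passed the filter on low counts. The quantity reported for each gene is the log2 change at time point 1 over time point 5 in W89A minus the same log2 change in WT, called the strain difference here. A positive value means that the gene was relatively higher at time point 1 in W89A than in WT, whatever the sign of either change.

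The 4 groups, of 3 libraries each, were W89A at time point 1, W89A at time point 5, WT at time point 1 and WT at time point 5. Both strains of Saccharomyces cerevisiae had the CEN.PK122-alpha background and were grown in a chemostat with constant oxygen, starved, and then fed slowly with low-glucose medium, under which they cycled. The 5 time points were sampled over 3 consecutive cycles of each strain, and the replicates are these cycles. Nothing in the labels names separate cultures, so the p-values measure the spread between cycles, and strain and culture cannot be told apart. Each library held 16540627 to 19842943 counts. Values per library are depth-normalised read counts (CPM), with TMM factors that correct for differences in library composition.

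In nutrient-limited continuous culture budding yeast consumes oxygen in synchronous bursts, and much of its transcriptome oscillates with them. Genes of ribosome assembly and amino acid synthesis peak around the burst of respiration, and genes of reserve carbohydrate, stress defence, peroxisomes and autophagy peak in the quiet phase before the next burst. Yaf9 holds a YEATS domain, a reader of acylated histone lysines, and is shared by the SWR1 complex, which places the histone variant Htz1, and by the acetyltransferase complex NuA4. In W89A the tryptophan at residue 89 of that domain is replaced by alanine. The labels do not say which phase of the cycle each time point was taken in.

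The wild-type codon that the mutation changes is shown first because it is the only stated genetic difference between the strains. In the R64 reference the bases around it, on the plus strand of chrXIV:420347-420379 within the YAF9 gene at chrXIV:420098-420778, read as follows, with the tryptophan codon in capitals.
YAF9: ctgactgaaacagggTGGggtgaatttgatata

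YAF9 itself was measured at 24.8, 23 and 27.6 CPM in W89A at time point 1, 21.5, 26.7 and 29 CPM in W89A at time point 5, 26.8, 33.6 and 31.2 CPM in WT at time point 1 and 28.5, 27.4 and 27.6 CPM in WT at time point 5. The groups overlapped, and the strain difference was -0.17 ± 0.19 (log2 ± SE; edgeR quasi-likelihood test, adjusted p = 0.63). A point mutation need not alter the level of its transcript, so this level does not check the strain labels, and the reads were not used here. The summed level of 4 alpha-cell markers was 999 to 2949.9 CPM over the 12 libraries, while that of 7 a-cell markers was 44.6 to 74.8 CPM.

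Some libraries stood apart from their labels or their group. W89A19 stands here as the time point 5 sample from cycle 1 of the mutant, as in the authors' deposited comparison of time point 5, whereas the order of titles would put W89A20 there. The root mean square distance from the other W89A libraries of time point 5, in log2(CPM + 1) over the genes tested, was 0.255 for W89A19 and 0.725 for W89A20. The distance from the later W89A libraries of time point 4 was 0.609 for W89A19 and 0.35 for W89A20. The other is the first-cycle WT library of time point 1, which lay 0.372 from the other 2 of its group, against 0.221 to 0.297 for the other libraries. Counts over all genes with and without these libraries, and those of lists that they moved most, stand beside the results.

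Across all genes the transition was smaller in W89A than in WT. Of the 6124 genes, 2717 (44.4%) differed between time points 1 and 5 in W89A and 3709 (60.6%) in WT at an adjusted p under 0.05. In W89A, 1469 were higher and 1248 lower at time point 1, and in WT 1912 were higher and 1797 lower. The median absolute change was 0.348 in W89A and 0.534 in WT on the log2 scale. Both strains shared 2512 changed genes, and 2489 of them moved in the same direction. The change was smaller in W89A for 2266 of those 2489. The changes of the strains had a Pearson r of 0.859 across genes, which are not independent replicates.

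The test of the strain difference itself called 832 genes (13.6%) at an adjusted p under 0.05. The difference was positive for 346 of them (5.65% of the genes tested) and negative for 486 (7.94%). At least a 2-fold difference was reached by 195 called genes, of which 113 were positive and 82 negative. An unadjusted p under 0.05 was reached by 1663 genes. The median strain difference over all genes was -0.015. For 763 of the called genes the changes of the strains did not overlap in any pairing of a time point 1 with a time point 5 library, a criterion that 18.1% of all genes met.

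**Figure D1:**
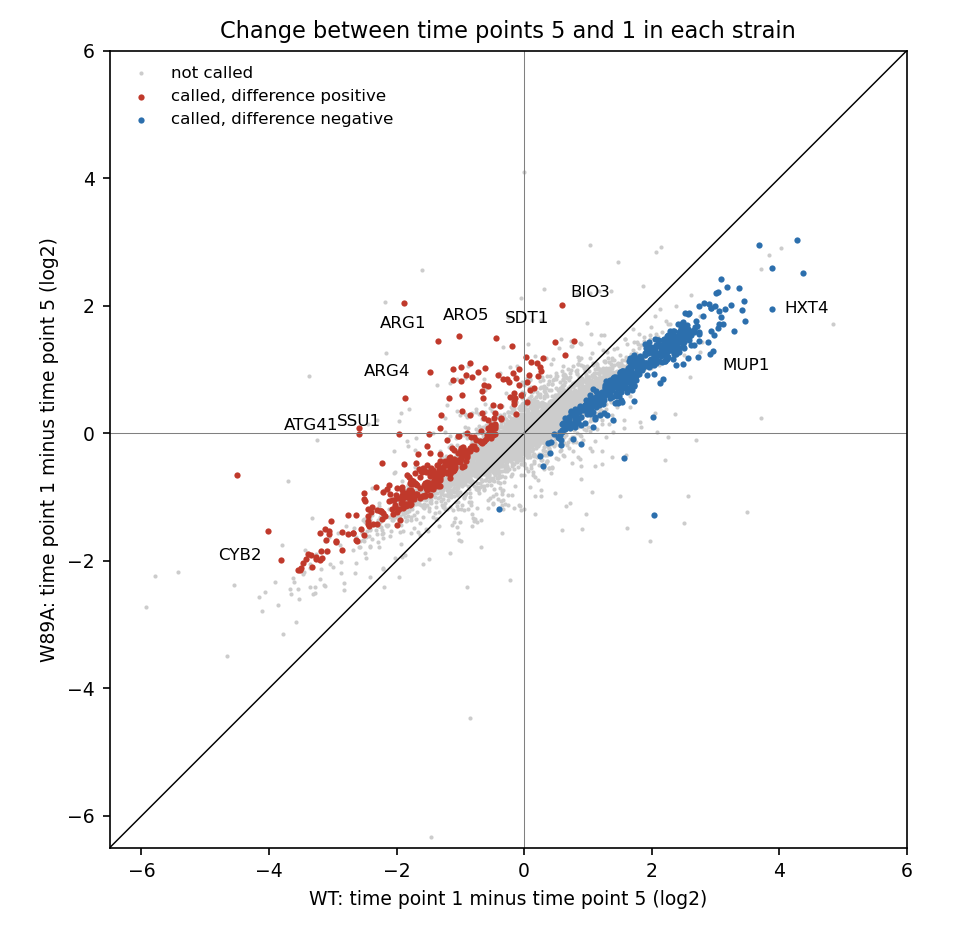
Each point is 1 of 6124 genes, with its log2 change (time point 1 minus time point 5) in WT on the x axis and in W89A on the y axis; the diagonal marks equal change, and coloured points are the 832 genes called for the strain difference. The called points farthest above the diagonal are low-level features that are not described. The called genes lie mostly between the diagonal and the horizontal line at 0, that is, with the smaller change in W89A, and the arginine genes ARG1 and ARG4 with ARO5 and SDT1 lie above 0 in W89A and below 0 in WT.

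Of the 832 called genes, 470 (56.5%) were higher at time point 1 in both strains but less so in W89A, with median changes of 1.04 in W89A and 1.76 in WT. Another 266 were lower at time point 1 in both strains and less so in W89A, with median changes of -0.77 in W89A and -1.56 in WT. These signs were read from the fitted changes, whether or not each change passed its own test. A set of 64 genes (7.69%) was higher at time point 1 in W89A and lower in WT, with median changes of 0.56 in W89A and -0.56 in WT. Of those 64, 23 passed the test in both strains, 24 in WT alone, 15 in W89A alone and 2 in neither. A further 16 genes were higher in both strains and more so in W89A, 15 were lower in W89A and higher in WT, and 1 was lower in both and more so in W89A.

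How many genes are called rests on the libraries in the fit. With W89A20 in place of W89A19, 39 of 6129 genes were called (0.636%), all of them among the 832. Without the first-cycle WT library of time point 1, 749 genes were called (12.1%), and 661 of these were among the 832. With all 30 libraries in the fit, which raised the common biological coefficient of variation to 0.1639, against 0.1376 with the 12 libraries, 92 genes were called (1.47%), again all among the 832. Of the 832 genes, 469 were called in each of the 12 fits that left out 1 library. Negative calls outnumbered positive ones in the fit reported here, but not in every fit. There were 390 positive and 359 negative calls without the first-cycle WT library of time point 1, and 361 and 321 with time point 5 blocked with time point 1 of the next cycle. With all 30 libraries there were 63 positive and 29 negative calls, and with W89A20 in place of W89A19 30 and 9. In bulk RNA, a shift in the share of cells in a given state and a change within each cell cannot be told apart.

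Among called genes with a symbol and a mean of at least 10 CPM, the 12 highest strain differences included ARG1, ARG4 and ARG56 of arginine synthesis, in which carbamoyl phosphate and ornithine are joined and converted to arginine. Of 8 genes of the pathway described here, 7 were called positive and none negative, with a median strain difference of 1.70, against -0.015 over all genes. Their median change was 0.97 in W89A and -0.77 in WT. Among all genes 5.65% were called positive. With W89A20 in place of W89A19, 3 of the 8 arginine genes were called positive, and with all 30 libraries 4 were. This pathway was singled out after its values were seen.

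ARG1, argininosuccinate synthetase (chrXV:219211-220473, plus strand), had 1961, 1717 and 1126 CPM at time point 1 and 431, 489 and 834 CPM at time point 5 in W89A, against 589.9, 516 and 538 CPM at time point 1 and 1170.0, 1536 and 1489 CPM at time point 5 in WT. All 3 W89A libraries of time point 1 lay above all 3 of time point 5, and in WT the order was the reverse. The strain difference was 2.80 ± 0.34 (adjusted p = 0.00016, edgeR), from a change of 1.45 in W89A and -1.35 in WT. At time point 1 alone the W89A to WT difference was 1.55, and at time point 5 it was -1.26, so the strains stood in opposite order at time points 1 and 5.

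ARG4, argininosuccinate lyase (chrVIII:140011-141402, minus strand), had 1573, 1401 and 895 CPM at time point 1 and 590.2, 622 and 773 CPM at time point 5 in W89A, against 494, 402 and 411 CPM at time point 1 and 1046, 1256 and 1322 CPM at time point 5 in WT. The strain difference was 2.43 ± 0.26 (adjusted p = 2.29e-05, edgeR). ARG56, written ARG5,6 in the deposited tables, encodes a precursor of 2 enzymes of ornithine synthesis and averaged 1048 ± 243 CPM at time point 1 and 509 ± 152 CPM at time point 5 in W89A, against 507 ± 71.8 CPM and 1008 ± 218 CPM in WT (SD, n = 3). Its strain difference was 2.03 ± 0.32, and it overlaps the open reading frame YER068C-A. With W89A20 in place of W89A19 the adjusted p of ARG56 was 0.16, and with all 30 libraries it was 0.051 (edgeR). ARG7, ARG3 and ARG8, which make and use ornithine, had strain differences of 1.71 ± 0.22, 1.69 ± 0.24 and 1.56 ± 0.22. ARG2, the first enzyme of the pathway, had 0.99 ± 0.17. In ARG8 and ARG2 the WT changes of -0.18 and -0.13 did not pass the test. CPA1, of carbamoyl phosphate synthesis, was the exception among these 8 with 0.59 ± 0.27 (adjusted p = 0.15).

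GCN4, the transcriptional activator of amino acid synthesis genes, was read after its targets' values were seen. Its own mRNA had 4776, 3637 and 3736 CPM in W89A at time point 1, 5596, 5858 and 5323 CPM in W89A at time point 5, 4213, 3359.5 and 3499 CPM in WT at time point 1 and 6458, 6142 and 6473 CPM in WT at time point 5. It was lower at time point 1 in both strains, and the strain difference of 0.32 ± 0.22 did not pass the test (adjusted p = 0.39, edgeR). PCL5, a cyclin known to promote the breakdown of Gcn4, had 309, 234 and 204 CPM at time point 1 and 97, 103 and 149 CPM at time point 5 in W89A, against 172, 133 and 147 CPM at time point 1 and 256, 272 and 289.7 CPM at time point 5 in WT. Its strain difference was 1.95 ± 0.24 (adjusted p = 0.00016).

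The Gcn4 motif TGACTCA was looked for on both strands from 250 bases before to 50 after each gene start in the R64 genome. It was present in 2.81% of 5770 promoters, in 11.3% of those of the genes called positive, and in 1.86% of those called negative. Among the 62 promoters of genes that were higher at time point 1 in W89A and lower in WT, 19 (30.6%) held it, and of the 72 amino acid synthesis promoters 24 (33.3%) did. The motif letters are a description of these windows and show neither binding nor a cause. The windows below carry it for arginine genes, TMT1 and ADH5, in capitals and 5′ to 3′ on the strand of the gene; in ADH5 the letters are those of the other strand and overlap the motif GATGAG.
ARG4: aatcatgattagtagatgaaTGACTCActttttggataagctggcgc
ARG56: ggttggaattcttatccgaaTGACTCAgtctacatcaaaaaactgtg
ARG7: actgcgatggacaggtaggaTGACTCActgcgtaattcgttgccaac
ARG8: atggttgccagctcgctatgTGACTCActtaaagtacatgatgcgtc
TMT1: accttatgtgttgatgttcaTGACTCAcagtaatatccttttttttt
ADH5: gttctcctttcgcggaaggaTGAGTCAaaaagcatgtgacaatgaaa
The ARG4 window lies at chrVIII:141555-141601, minus strand, that of ARG56 at chrV:295167-295213, plus strand and that of ARG7 at chrXIII:396505-396551, minus strand. The ARG8 window lies at chrXV:58559-58605, plus strand, that of TMT1 at chrV:540507-540553, minus strand and that of ADH5 at chrII:533515-533561, plus strand. Windows were printed only for motifs with 20 bases on each side inside the 250 bases before the gene start. For ARG1 there was no such window, which does not cover motifs nearer the edges or after the start. The letters TGACTCA are not limited to positive genes: MUP1, a negative gene described below, holds them on the other strand at chrVII:599227-599273, plus strand.
MUP1: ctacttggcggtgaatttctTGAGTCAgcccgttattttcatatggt

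Over all 72 genes of amino acid synthesis 25 were called positive and 7 negative, with a median strain difference of 0.33 and median changes of 0.79 in W89A and 0.29 in WT. The shares were 34.7% positive and 9.72% negative, against 5.65% and 7.94% of all genes. With W89A20 in the place of W89A19 the counts were 6 and 0, and with all 30 libraries 11 and 2. The aromatic branch followed arginine with 9 of 14 genes called positive and 1 negative (median 0.75). ARO3, which starts aromatic synthesis, had 210.1, 220.0 and 174 CPM at time point 1 and 105, 104 and 126 CPM at time point 5 in W89A, against 112, 123 and 116 CPM at time point 1 and 126, 160.2 and 156 CPM at time point 5 in WT, a strain difference of 1.19 ± 0.17. Histidine synthesis had 3 of 7 called positive, and branched-chain synthesis 2 of 11 positive and 1 negative.

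Lysine synthesis had more negative than positive calls, with 3 of 8 genes called negative, 1 positive and a median of -0.31. Among all genes 7.94% were called negative and 5.65% positive. With W89A20 in place of W89A19 no lysine gene was called, and with all 30 libraries 2 were negative and 1 positive. LYS9, saccharopine dehydrogenase, had 815, 701 and 879 CPM at time point 1 and 305, 261 and 223 CPM at time point 5 in W89A, against 1775, 1639 and 1607 CPM at time point 1 and 294, 156 and 208 CPM at time point 5 in WT. The transition was large in both strains, and the strain difference of -1.33 ± 0.26 (adjusted p = 0.0029, edgeR) lay at time point 1, where all W89A libraries were below WT, while the strains overlapped at time point 5. LYS12, homoisocitrate dehydrogenase, had -0.90 ± 0.18, LEU1 of leucine synthesis -0.98 ± 0.20, and ARO7, chorismate mutase, -0.94 ± 0.18.

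**Figure D2:**
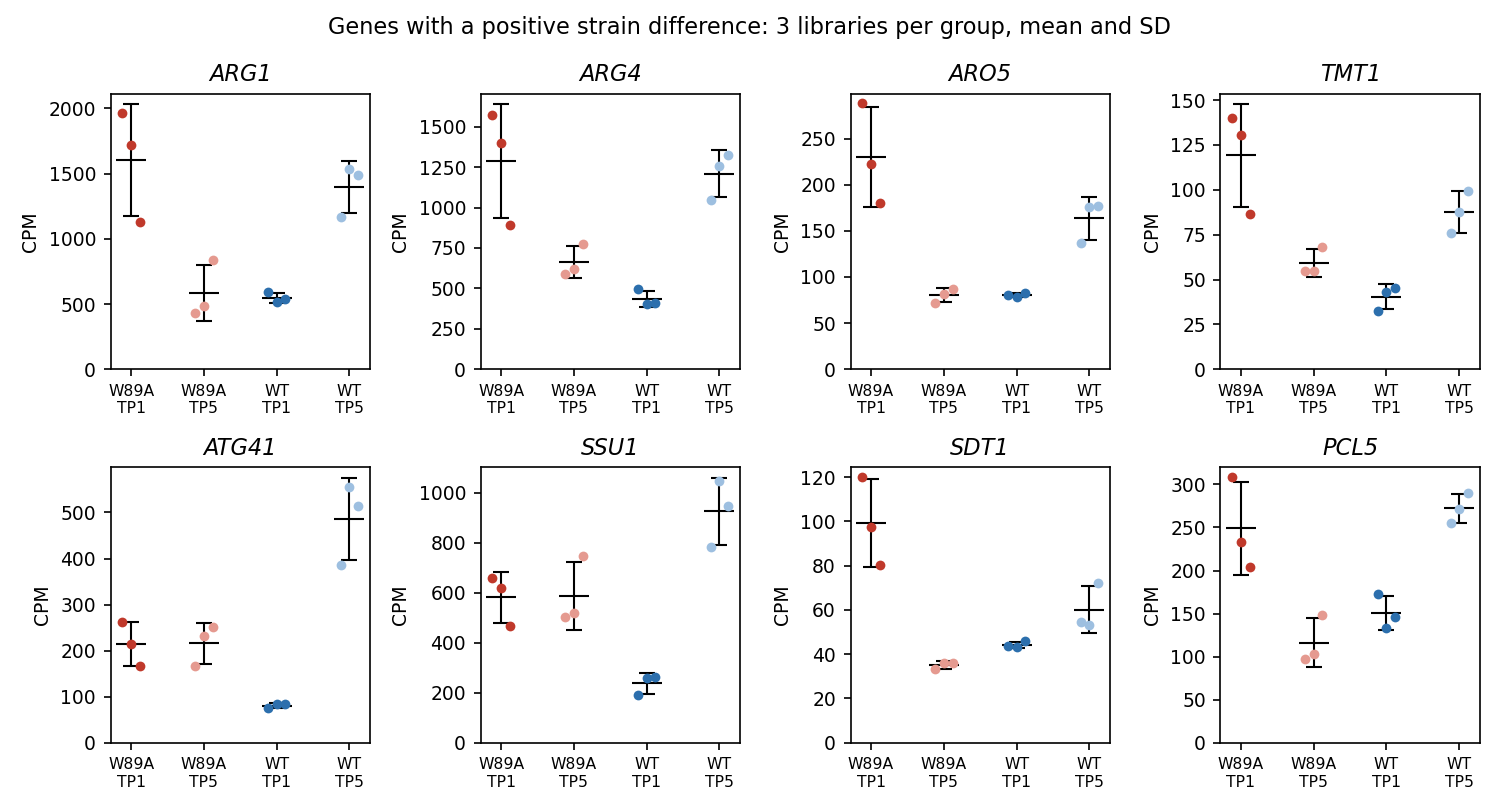
CPM in each of the 12 libraries for 8 genes with a positive strain difference; points are libraries, and the bars are the mean and SD of the 3 libraries of a group, W89A before WT. ARG1, ARG4, ARO5, TMT1, SDT1 and PCL5 are higher at time point 1 than at time point 5 in W89A and lower in WT, whereas ATG41 and SSU1 are level in W89A and lower at time point 1 in WT.

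Among the other genes with large positive differences, ARO5 (YGL117W, chrVII:288512-289309) had the smallest p-value of all genes. It had 288, 222 and 181 CPM at time point 1 and 71.9, 81.5 and 87 CPM at time point 5 in W89A, against 80.9, 78.3 and 83 CPM at time point 1 and 137, 176 and 177 CPM at time point 5 in WT, a strain difference of 2.54 ± 0.21 (adjusted p = 1.98e-06, edgeR). No library of time point 1 overlapped one of time point 5 in either strain. TMT1, trans-aconitate methyltransferase, had 140.2, 131 and 86.5 CPM at time point 1 and 54.9, 54.5 and 68.3 CPM at time point 5 in W89A, against 32.6, 43.2 and 45.5 CPM at time point 1 and 75.9, 87.7 and 99.6 CPM at time point 5 in WT, a strain difference of 2.12 ± 0.25. SDT1, a pyrimidine nucleotidase, had 120.2, 97.3 and 80.3 CPM at time point 1 and 33.1, 36.2 and 36 CPM at time point 5 in W89A, against 43.8, 43.3 and 45.9 CPM at time point 1 and 54.4, 53.4 and 72.2 CPM at time point 5 in WT, a strain difference of 1.94 ± 0.20. ADH5, an alcohol dehydrogenase isozyme, had a strain difference of 1.81 ± 0.19, with 171, 144 and 101 CPM in W89A and 46.4, 49.5 and 45.5 CPM in WT at time point 1. At time point 5 the ADH5 difference between the strains, -0.25, did not pass the test (adjusted p = 0.22).

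For other genes the W89A change was near 0 or smaller than that of WT. ATG41, an autophagy gene (chrXVI:74309-74719), had 262, 215 and 167 CPM at time point 1 and 166, 232 and 251 CPM at time point 5 in W89A, and these overlapped. In WT it had 74.5, 83.3 and 83.8 CPM at time point 1 and 385, 555 and 514 CPM at time point 5, which were far apart. The strain difference was 2.58 ± 0.26 (adjusted p = 2.21e-05, edgeR), from changes of -0.01 in W89A and -2.59 in WT. SSU1, the sulfite efflux pump, likewise had 659, 619 and 468 CPM at time point 1 and 503, 517 and 746 CPM at time point 5 in W89A, against 190.4, 261 and 264 CPM at time point 1 and 782, 1047 and 949 CPM at time point 5 in WT, and a strain difference of 1.94 ± 0.26. CYB2, the lactate dehydrogenase cytochrome b, was lower at time point 1 in both strains, with 173, 258 and 166 CPM at time point 1 and 997, 802 and 576 CPM at time point 5 in W89A and 48.8, 69.7 and 80.7 CPM at time point 1 and 751, 999 and 1048 CPM at time point 5 in WT. Its strain difference of 1.82 ± 0.34 (adjusted p = 0.0031) lay at time point 1, where the W89A libraries were higher, while at time point 5 the strains overlapped.

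RIB5 and BIO3, which make vitamins, were among the 10 genes with the smallest p-values. RIB5, riboflavin synthase, had 263, 236 and 194 CPM at time point 1 and 129, 156 and 173 CPM at time point 5 in W89A, against 144, 135 and 136 CPM at time point 1 and 242, 287 and 281 CPM at time point 5 in WT, a strain difference of 1.56 ± 0.18 (adjusted p = 5.8e-05, edgeR). BIO3, an enzyme of biotin synthesis, was higher at time point 1 in both strains and more so in W89A, with 112, 104 and 95.6 CPM at time point 1 and 24, 23.9 and 29.4 CPM at time point 5 in W89A and 59.6, 65.1 and 74.8 CPM at time point 1 and 41.8, 47.2 and 42.8 CPM at time point 5 in WT. Its strain difference was 1.41 ± 0.17. The biotin transporter VHT1 had 0.66 ± 0.19. Of 22 genes of thiamine and vitamin B6 none was called positive and 1 negative, the thiamine transporter gene THI7 with -0.88 ± 0.19. That call was 4.55% of the list, below the 7.94% called negative among all genes. YHI9 had 1.63 ± 0.17, and ZPS1, a cell surface protein gene regulated by zinc, had 1.16 ± 0.14. Each of the 12 genes with the highest strain difference and of the 10 with the smallest p remained called without any 1 library. With W89A20 in place of W89A19, 9 of the 12 and 9 of the 10 remained called, and with all 30 libraries 10 of the 12 and 9 of the 10.

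Genes of reserve carbohydrate, of growth on non-sugar carbon and of fat oxidation were lower at time point 1 in both strains by their list medians, and less so in W89A. Of 23 genes of trehalose and glycogen metabolism 10 were called positive and none negative, with a median strain difference of 0.80 and median changes of -1.15 in W89A and -1.90 in WT. Of 30 genes of gluconeogenesis, the glyoxylate cycle and acetyl-CoA synthesis 11 were positive and 2 negative (median 0.59). Of 43 peroxisome and fatty acid oxidation genes 10 were positive and 1 negative (median 0.35), and of 35 oxidative stress genes 6 were positive and 1 negative (median 0.37). The shares called positive were 43.5%, 36.7%, 23.3% and 17.1% in that order, against 5.65% of all genes. Without the first-cycle WT library of time point 1 the counts were 12 and 0, 12 and 2, 13 and 0, and 7 and 1, in that order. With W89A20 in place of W89A19, 1 gene of these 4 lists was called, and with all 30 libraries none was.

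IGD1, an inhibitor of the glycogen debranching enzyme, had 36.4, 44.1 and 39.6 CPM at time point 1 and 91.9, 98.9 and 83.9 CPM at time point 5 in W89A, against 16.8, 22.9 and 29.3 CPM at time point 1 and 128, 126 and 123 CPM at time point 5 in WT. All W89A libraries of time point 1 lay above those of WT and all W89A libraries of time point 5 below, a strain difference of 1.26 ± 0.20 (adjusted p = 0.0007, edgeR). UGP1, which makes UDP-glucose, had 1.04 ± 0.19, GPH1, glycogen phosphorylase, 1.12 ± 0.26, and GLG2, which primes glycogen, 0.80 ± 0.17. ADH2, the ethanol-consuming alcohol dehydrogenase, had 2630.5, 2987 and 2618 CPM at time point 1 and 10926, 11724 and 9541 CPM at time point 5 in W89A, against 1140.2, 1368 and 1576 CPM at time point 1 and 15187, 14196 and 14399 CPM at time point 5 in WT, a strain difference of 1.46 ± 0.23. JEN1, the lactate and pyruvate permease, had 3032, 3926 and 3762 CPM at time point 1 and 11670.0, 10617 and 9439.6 CPM at time point 5 in W89A, against 780.3, 1623 and 1792 CPM at time point 1 and 12471, 12584 and 13391 CPM at time point 5 in WT, a strain difference of 1.63 ± 0.33 (adjusted p = 0.003). The residual level at time point 1 was thus higher in all 3 W89A libraries than in any WT library for both genes.

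ICL1, isocitrate lyase of the glyoxylate cycle, had 1.09 ± 0.19, and ATO3, a membrane protein of the acetate and ammonium transporter family, 1.48 ± 0.25. The 2 negative genes were MAE1, malic enzyme, with -0.83 ± 0.21, and PCK1, phosphoenolpyruvate carboxykinase. PCK1 was the 1 called gene that was lower at time point 1 in both strains and more so in W89A, with 38.9, 49 and 47.1 CPM at time point 1 and 93.6, 127 and 86.8 CPM at time point 5 in W89A and 45.2, 58.2 and 46.2 CPM at time point 1 and 77.8, 56.8 and 62.8 CPM at time point 5 in WT (strain difference -0.79 ± 0.22, adjusted p = 0.024, edgeR). The call of PCK1 was kept in 7 of the 12 fits that left out 1 library.

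In the peroxisome list, POX1, acyl-CoA oxidase, had 538, 741 and 661 CPM at time point 1 and 1669, 1597 and 1451 CPM at time point 5 in W89A, against 157, 325 and 327 CPM at time point 1 and 1579, 1721 and 1747 CPM at time point 5 in WT, a strain difference of 1.36 ± 0.30 (adjusted p = 0.0066, edgeR). CTA1, the peroxisomal catalase, had 1.44 ± 0.34, SPS19, a dienoyl-CoA reductase, 1.05 ± 0.21, and FAA1, a fatty acyl-CoA synthetase, 0.96 ± 0.21. The superoxide dismutases had 0.78 ± 0.19 for SOD2 and 0.75 ± 0.19 for SOD1. OYE2, an NADPH oxidoreductase of the same stress list, was negative with -0.96 ± 0.17. The hexose kinases GLK1 and HXK1 had 1.34 ± 0.24 and 1.13 ± 0.24, and with W89A20 in place of W89A19 HXK1 had -0.16. Of 30 stationary phase and desiccation genes 1 was called, DDR2, with 1.20 ± 0.30, although the median of the list was 0.74 and 8 were called without the first-cycle WT library of time point 1. The 1 call was 3.33% of the list, against 5.65% of all genes called positive.

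Promoters of these genes were scanned for AGGGG, the stress element of Msn2 and Msn4. It was present in 21.9% of all promoters, 39.7% of those called positive and 58 of the 483 called negative. Among the genes that were lower at time point 1 in both strains and less so in W89A, 44.4% held it, and in the trehalose and glycogen list 47.8%. CYB2 shows the element on the other strand, in the window at chrXIII:167505-167549, minus strand.
CYB2: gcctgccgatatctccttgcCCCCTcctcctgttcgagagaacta

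The genes that were higher at time point 1 in both strains and less so in W89A were led by ribosome assembly. Of 128 ribosome biogenesis genes, 118 were called negative and none positive, against 7.94% called negative among all genes. The median strain difference was -0.82, from median changes of 1.33 in W89A and 2.14 in WT. All 128 were higher at time point 1 in WT at an adjusted p under 0.05, as were 127 in W89A. At time point 1 the median W89A to WT difference was -0.42, and at time point 5 it was 0.39. Without the first-cycle WT library of time point 1, 102 were called (median -0.67). With W89A20 in place of W89A19 none was called (median -0.42), and with all 30 libraries none was called although the median was -0.82.

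REX4, a putative ribosomal RNA exonuclease, had 25, 25.7 and 25 CPM at time point 1 and 9.28, 8.87 and 10.001 CPM at time point 5 in W89A, against 46.8, 42.2 and 39.6 CPM at time point 1 and 5.04, 6.27 and 6.00 CPM at time point 5 in WT. The W89A libraries lay below WT at time point 1 and above WT at time point 5 with no overlap, a strain difference of -1.46 ± 0.20 (adjusted p = 0.00023, edgeR), and REX4 overlaps the open reading frame YOL079W. DHR2, an RNA helicase of small subunit assembly, had 42.1, 45.2 and 36.1 CPM at time point 1 and 14.4, 13 and 11.9 CPM at time point 5 in W89A, against 81, 65.3 and 59.4 CPM at time point 1 and 6.72, 10.2 and 8.05 CPM at time point 5 in WT, a strain difference of -1.38 ± 0.22. BMT5, a methyltransferase of the large subunit ribosomal RNA, had -1.41 ± 0.22. ENP2 and HCA4 of small subunit processing had -0.98 ± 0.13 and -0.98 ± 0.14, and MAK21 of large subunit assembly -1.08 ± 0.15. TRM11, a tRNA methyltransferase subunit, had 114, 116 and 105 CPM at time point 1 and 28.8, 26.8 and 27.2 CPM at time point 5 in W89A, against 217, 174 and 173 CPM at time point 1 and 21.7, 18.5 and 19.2 CPM at time point 5 in WT, a strain difference of -1.24 ± 0.16 (adjusted p = 0.00011). GFD2 and ATC1, which are in no list, had -1.48 ± 0.21 and -1.42 ± 0.20.

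The letters GATGAG, known as the PAC element of ribosome biogenesis promoters, were present in 118 of these 128 promoters (92.2%). They were present in 19.8% of all promoters, 51.8% of those called negative and 13.7% of those called positive. The windows below show it in capitals for genes of the 12 lowest strain differences. Shown are those that hold it with 20 bases on each side before the gene start. In REX4 the letters are those of the other strand, and in DHR2 the element recurs downstream within the same window.
REX4: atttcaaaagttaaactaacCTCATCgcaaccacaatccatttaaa
DHR2: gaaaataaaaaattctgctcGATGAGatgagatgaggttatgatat
BMT5: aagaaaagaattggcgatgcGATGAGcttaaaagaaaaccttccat
GFD2: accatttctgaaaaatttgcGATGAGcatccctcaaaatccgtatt
ATC1: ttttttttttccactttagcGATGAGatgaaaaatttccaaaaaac
The REX4 window lies at chrXV:181491-181536, minus strand, that of DHR2 at chrXI:288749-288794, plus strand and that of BMT5 at chrIX:183208-183253, minus strand. The GFD2 window lies at chrIII:58881-58926, plus strand and that of ATC1 at chrIV:831654-831699, minus strand.

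The other lists of the translation machinery also had negative medians. Of 35 genes of RNA polymerases I and III 16 were called negative and none positive (median -0.53), of 50 translation factors and tRNA synthetases 16 negative and none positive (median -0.40), and of 137 cytosolic ribosomal protein genes 2 negative and none positive (median -0.39). The shares called negative were 45.7%, 32% and 1.46% in that order, against 7.94% of all genes, so that of the ribosomal protein genes was below the share of all genes. RPA190, the largest subunit of RNA polymerase I, had 388, 339 and 351 CPM at time point 1 and 156, 142 and 143 CPM at time point 5 in W89A, against 587, 435 and 443 CPM at time point 1 and 115, 85.3 and 106 CPM at time point 5 in WT, a strain difference of -0.97 ± 0.19 (adjusted p = 0.0029, edgeR). RPA43, RPA49 and RPA135 of the same enzyme had -0.86 ± 0.16, -0.82 ± 0.16 and -0.95 ± 0.20. TIF4631, an initiation factor, had -0.96 ± 0.15, the elongation factor gene YEF3 -1.13 ± 0.26, GLN4, glutaminyl-tRNA synthetase, -0.87 ± 0.14, and FRS2 of the phenylalanyl enzyme -0.73 ± 0.17. Without the first-cycle WT library of time point 1, 6 polymerase genes, 11 translation genes and 1 ribosomal protein gene were called. With W89A20 in place of W89A19 no gene of these 3 lists was called, and with all 30 libraries 1 translation gene was.

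The 2 ribosomal protein genes were RPL9A, with 617, 524 and 499 CPM at time point 1 and 245, 290.0 and 194 CPM at time point 5 in W89A and 1115, 557 and 696 CPM at time point 1 and 169, 153 and 179.7 CPM at time point 5 in WT (strain difference -1.07 ± 0.30, adjusted p = 0.026, edgeR), and RPS26B, with -0.66 ± 0.21 (adjusted p = 0.046). In both, the first-cycle WT library of time point 1 was the highest of the 12, and the calls were kept in 6 and 4 of the 12 fits that left out 1 library. Both genes have near-identical copies, so their counts are uncertain. Of 74 mitochondrial ribosomal protein genes none was called (median -0.17). Their smallest p-values were those of MRP20, with 0.41 ± 0.15 (adjusted p = 0.081), and MRPL15, with -0.51 ± 0.19 (adjusted p = 0.082).

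Of 43 nucleotide synthesis genes 14 were called negative and 1 positive, SDT1, and the median was -0.35. The share called negative was 32.6%, against 7.94% of all genes. URA7, CTP synthase, had 283, 292 and 244 CPM at time point 1 and 74.7, 74.3 and 63 CPM at time point 5 in W89A, against 500.2, 333 and 373 CPM at time point 1 and 49.6, 38.4 and 47.8 CPM at time point 5 in WT, a strain difference of -1.20 ± 0.21 (adjusted p = 0.00096, edgeR). SHM2, cytosolic serine hydroxymethyltransferase, had -1.34 ± 0.26, FUR1 of uracil salvage -0.81 ± 0.16, and IMD4 of guanine nucleotide synthesis -1.37 ± 0.25; IMD4 has near-identical relatives and hosts snR54. In the pentose phosphate pathway 3 of 12 genes were called, all negative, with -1.01 ± 0.17 for RKI1, -0.97 ± 0.24 for GND1 and -0.99 ± 0.25 for TKL1, although the median of the list was -0.03. These 3 were 25% of that list.

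The 12 lowest strain differences of named genes included the permease genes HXT4, GNP1, MUP1, DAL5 and MEP2. HXT4, a hexose transporter (chrVIII:287081-288811, minus strand), had 145, 131 and 145 CPM at time point 1 and 37.4, 39.5 and 31.6 CPM at time point 5 in W89A, against 553, 403 and 413 CPM at time point 1 and 25.9, 29.2 and 37.6 CPM at time point 5 in WT. The strains overlapped at time point 5, and at time point 1 the W89A libraries were all below WT, a strain difference of -1.93 ± 0.21 (adjusted p = 2.21e-05, edgeR). HXT6 and HXT7, close copies of each other, had the other sign, 0.92 ± 0.21 and 0.78 ± 0.20, with counts that may be split between them. HXT13, of a family of close copies, averaged 2.86 ± 0.658 CPM at time point 1 and 1.95 ± 0.257 CPM at time point 5 in W89A, against 1.05 ± 0.403 CPM and 3.91 ± 1.25 CPM in WT (SD, n = 3), a strain difference of 2.43 ± 0.58 (adjusted p = 0.0093).

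Of 37 genes under nitrogen catabolite control 8 were called negative and 1 positive (median -0.38). The shares were 21.6% negative and 2.7% positive, against 7.94% and 5.65% of all genes. Without the first-cycle WT library of time point 1 the counts were also 8 and 1, with W89A20 in place of W89A19 they were 2 and 1, and with all 30 libraries 1 and 1. GNP1, the glutamine permease, had 92.4, 72.5 and 62.4 CPM at time point 1 and 23.6, 22 and 21.4 CPM at time point 5 in W89A, against 145, 85.3 and 92.1 CPM at time point 1 and 10.1, 7.63 and 11.4 CPM at time point 5 in WT. All 3 W89A libraries of time point 5 were above those of WT, and the strains overlapped at time point 1. Its strain difference was -1.70 ± 0.30 (adjusted p = 0.0024, edgeR), and GNP1 overlaps the open reading frame YDR509W. DAL5, the allantoate permease, had 117, 75.8 and 98.9 CPM at time point 1 and 46, 38.8 and 42.7 CPM at time point 5 in W89A, against 186, 202 and 169 CPM at time point 1 and 27.8, 24.1 and 32.5 CPM at time point 5 in WT, a strain difference of -1.53 ± 0.20. DAL7, the malate synthase of allantoin breakdown, had 97.8, 105 and 104 CPM at time point 1 and 40.1, 29.5 and 36.1 CPM at time point 5 in W89A, against 197, 192 and 162 CPM at time point 1 and 19.7, 26.9 and 23.3 CPM at time point 5 in WT, a strain difference of -1.44 ± 0.18. DAL2 had -0.95 ± 0.20.

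MEP2, the high-affinity ammonium permease, had 2864, 2280.0 and 2365 CPM at time point 1 and 1044, 1055 and 1217 CPM at time point 5 in W89A, against 4744, 3181 and 3470.0 CPM at time point 1 and 904, 462 and 552 CPM at time point 5 in WT, a strain difference of -1.39 ± 0.30 (adjusted p = 0.0055, edgeR). The positive gene of the list was PUT4, the proline permease, with 404, 413 and 238 CPM at time point 1 and 856, 639 and 665 CPM at time point 5 in W89A and 109, 134 and 147 CPM at time point 1 and 747, 726 and 753 CPM at time point 5 in WT, a strain difference of 1.48 ± 0.26. The GATA element, GATAAG on either strand, was present in 14.7% of all promoters, in 40.5% of those of the nitrogen list, in 12.8% of those called negative and in 20.6% of those called positive. It is shown in capitals for DAL5, where it is on the other strand, at chrX:719475-719520, plus strand, and for DAL7 at chrIX:414821-414866, minus strand.
DAL5: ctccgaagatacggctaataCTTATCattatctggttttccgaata
DAL7: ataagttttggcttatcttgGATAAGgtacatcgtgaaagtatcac

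Of 32 genes of sulfur assimilation and methionine 10 were called negative and 3 positive (median -0.41). The shares were 31.2% negative and 9.38% positive, against 7.94% and 5.65% of all genes. MUP1, the high-affinity methionine permease, had 407, 304 and 360.0 CPM at time point 1 and 167, 159 and 123 CPM at time point 5 in W89A, against 987, 792 and 726 CPM at time point 1 and 95, 122 and 116 CPM at time point 5 in WT. The strains did not overlap at either time point, and the strain difference was -1.67 ± 0.22 (adjusted p = 0.00016, edgeR). SAM1, S-adenosylmethionine synthetase, had -1.31 ± 0.27, MET3, the first enzyme of sulfate assimilation, -0.99 ± 0.21, and CYS4, cystathionine synthase, -0.71 ± 0.18. SAM1 has a close copy. The 3 positive genes were SSU1, described above, and STR2 and STR3 of transsulfuration, with 1.21 ± 0.17 and 0.78 ± 0.22. Without the first-cycle WT library of time point 1, 7 were called negative and 3 positive, and with W89A20 in place of W89A19, 1 negative and 1 positive. With all 30 libraries none was called negative and 2 positive, and without W89A19 4 were called negative and 2 positive. The letters CACGTG, of Cbf1 and Pho4, were in 28.1% of the promoters of this list and in 2.93% of all promoters.

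**Figure D3:**
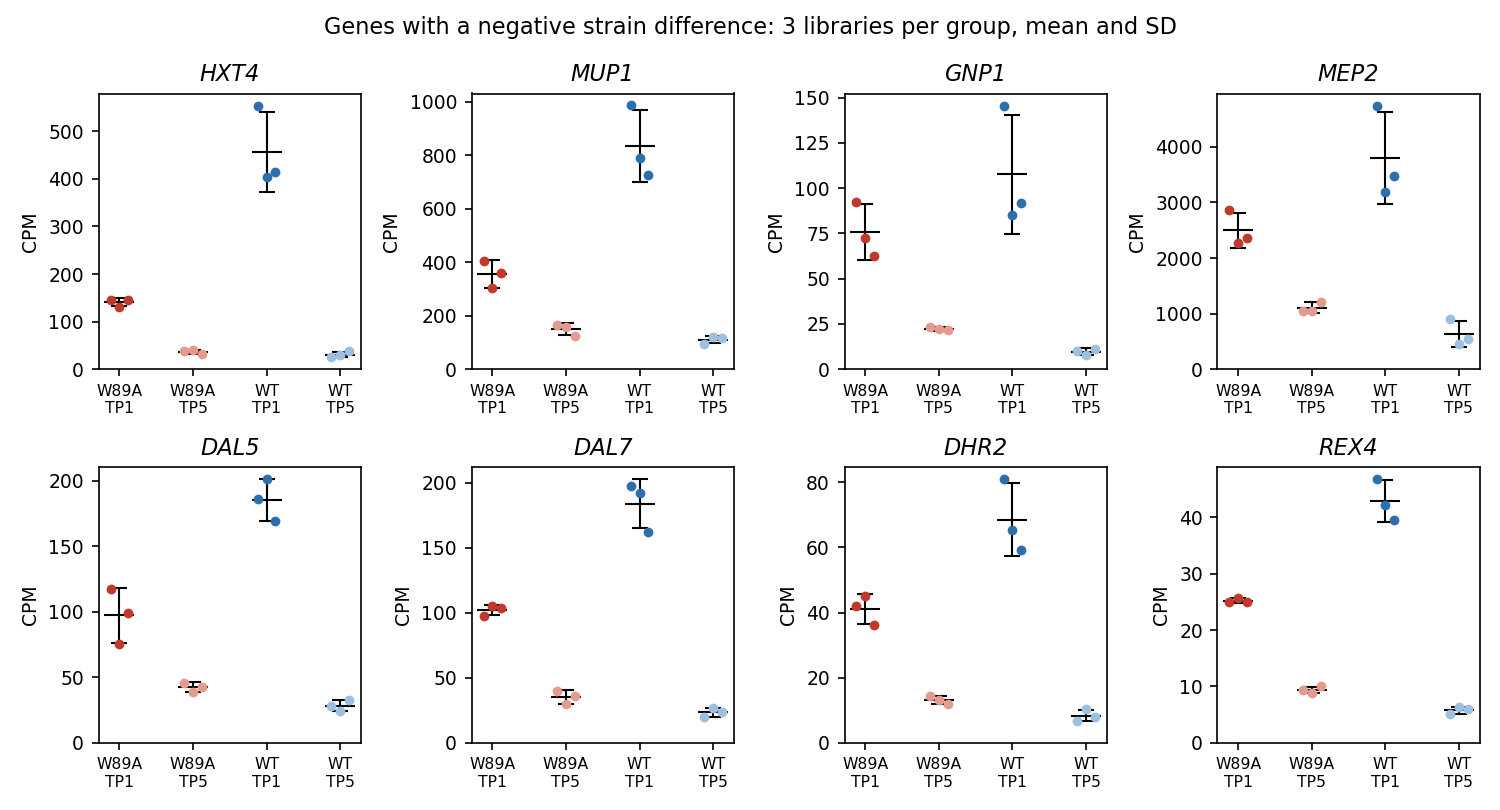
CPM in each of the 12 libraries for 8 genes with a negative strain difference; points are libraries, and the bars are the mean and SD of the 3 libraries of a group, W89A before WT. All 8 are higher at time point 1 in both strains, with a lower level in W89A than in WT at time point 1 for all but GNP1, which overlaps, and a higher level in W89A at time point 5 for all but HXT4, which overlaps.

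Of the 12 named genes with the lowest strain difference, 11 remained called without any 1 library. The exception was BSC1, with 25.3, 25.7 and 18.8 CPM at time point 1 and 2.11, 4.88 and 5.22 CPM at time point 5 in W89A and 52, 43 and 23.4 CPM at time point 1 and 1.01, 2.17 and 2.47 CPM at time point 5 in WT, whose strain difference of -1.85 ± 0.54 (adjusted p = 0.04, edgeR) was called in 2 of the 12 fits that left out 1 library. With W89A20 in place of W89A19, 3 of the 12 remained called, and with all 30 libraries 3.

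Called genes of the respiratory chain and TCA cycle lists were all positive. Of 44 genes of the respiratory chain and ATP synthase 4 were called positive and none negative (median 0.27), 9.09% of the list, against 5.65% called positive among all genes, and 8 were called positive without the first-cycle WT library of time point 1. The 4 were the ATPase inhibitor INH1 with 0.60 ± 0.15, its relatives STF1 and STF2 with 0.55 ± 0.18 and 1.44 ± 0.38, and COX26 of cytochrome oxidase. COX26 had 42.6, 68.4 and 37.5 CPM at time point 1 and 111, 161 and 113 CPM at time point 5 in W89A, against 9.91, 15.8 and 19.5 CPM at time point 1 and 138, 121 and 112 CPM at time point 5 in WT, a strain difference of 1.66 ± 0.38 (adjusted p = 0.016, edgeR). Of 18 TCA cycle genes 3 were called positive, 16.7% of the list, CIT3 with 0.75 ± 0.18, LSC2 with 0.65 ± 0.21 and IDP1 with 0.44 ± 0.13. The TCA cycle count was 1 without the first- or third-cycle WT library of time point 5 or without the second- or third-cycle W89A library of either time point. Calls of INH1, COX26 and CIT3 were kept in 11, 12 and 12 of the 12 fits that left out 1 library. Those of STF2, STF1, LSC2 and IDP1 were kept in 5, 2, 4 and 3. No gene of either list was called with W89A20 in place of W89A19 or with all 30 libraries. Of 43 proteasome genes 2 were positive, SEM1 and PUP3, whose calls were kept in 7 and 2 of the 12 fits that left out 1 library. None was called in the 4 fits that left out the first-cycle library of time point 5 or the third-cycle library of time point 1 of 1 strain. Of 10 vacuolar protease genes 2 were positive, LAP3 with 0.84 ± 0.18 and APE1 with 0.79 ± 0.20. Of 35 autophagy genes 2 were positive, ATG41 and the kinase gene ATG1, with 1.33 ± 0.27. The shares called positive were 4.65% for the proteasome, 20% for the vacuolar proteases and 5.71% for autophagy, against 5.65% of all genes. Those of the proteasome and of autophagy were thus not above or only near the share of all genes.

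The catalase gene CTA1 belongs to both the peroxisome and the oxidative stress list. Among 42 heat shock and chaperone genes 2 were called positive and 3 negative. The positive ones were SSA1 with 0.97 ± 0.31 and AHA1 with 0.64 ± 0.20 (adjusted p = 0.043 and 0.045, edgeR), which act in protein folding. Their calls were kept in 3 and 4 of the 12 fits that left out 1 library. The negative ones were SSB1 with -1.07 ± 0.27, SSZ1 with -0.61 ± 0.16 and JJJ1 with -1.32 ± 0.25, which are chaperones of the ribosome and of its assembly. Only 5 of the 42 genes were called, and a division of the list by function was not tested. SSA1 and SSB1 have near-identical copies. In the iron list 3 of 33 were positive, HMX1, heme oxygenase, with 1.29 ± 0.19, FIT1 with 0.999 ± 0.21 and VHT1, and 2 negative, ATM1 with -0.64 ± 0.17 and AFT2 with -0.69 ± 0.20. The ergosterol list had 3 of 29 positive and 1 negative, including HMG1, HMG-CoA reductase, with 1.02 ± 0.23, and the regulator UPC2 with -0.76 ± 0.23. The shares called in either direction in the chaperone, iron and ergosterol lists were 11.9%, 15.2% and 13.8%, near the 13.6% of all genes.

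Of 38 regulators of glucose signalling 2 were called positive and 5 negative, 18.4% in either direction, against 13.6% of all genes. SIP4, an activator of gluconeogenic genes, had 64.5, 67.7 and 67.7 CPM at time point 1 and 289, 284 and 285 CPM at time point 5 in W89A, against 29.8, 41.5 and 39.4 CPM at time point 1 and 349, 372 and 385 CPM at time point 5 in WT, a strain difference of 1.22 ± 0.16 (adjusted p = 0.00016, edgeR). IFH1, a coactivator of ribosomal protein genes, had 80.03, 76.8 and 72 CPM at time point 1 and 32, 24.6 and 30.7 CPM at time point 5 in W89A, against 109, 89.2 and 83.5 CPM at time point 1 and 16, 16.4 and 13.5 CPM at time point 5 in WT, a strain difference of -1.23 ± 0.18. The paralogs RAS2 and RAS1 had opposite signs, 0.61 ± 0.14 and -0.85 ± 0.16. TOD6, a repressor that binds the PAC element, had -0.81 ± 0.16, and TPK3, a catalytic subunit of protein kinase A, -0.60 ± 0.17.

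Of 41 cell division genes 4 were called positive and 2 negative, 14.6% in either direction, near the 13.6% of all genes. CLN3, the G1 cyclin that starts the cell cycle, was one of the 15 genes that were lower at time point 1 in W89A and higher in WT. It had 92.7, 82.5 and 92.4 CPM at time point 1 and 112, 94.4 and 92.6 CPM at time point 5 in W89A, where the time points overlapped, against 129.7, 117 and 102 CPM at time point 1 and 59.5, 61.9 and 66.1 CPM at time point 5 in WT, which did not overlap. The strain difference was -1.06 ± 0.16 (adjusted p = 0.00036, edgeR), the W89A change of -0.16 did not pass its own test, and the call was kept with W89A20 in place of W89A19 (adjusted p = 0.022) and with all 30 libraries (adjusted p = 0.0043). PUT1, proline oxidase, was in the same class with -0.76 ± 0.17. CDC20, an activator of the anaphase-promoting complex, had 32.6, 35.6 and 38.5 CPM at time point 1 and 37.5, 35 and 36.8 CPM at time point 5 in W89A, against 21.3, 24.1 and 22.2 CPM at time point 1 and 44.8, 49.5 and 43.7 CPM at time point 5 in WT, a strain difference of 0.99 ± 0.16. CHS2 and HOF1 of cytokinesis had 0.84 ± 0.17 and 1.02 ± 0.24.

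Of 49 cell wall genes 2 were positive, the mannoprotein genes TIP1 with 1.31 ± 0.21 and SED1 with 0.89 ± 0.22, and 2 negative, FKS1, glucan synthase, with -0.88 ± 0.25 and SMI1 with -0.54 ± 0.17. The share called in either direction was 8.16%, against 13.6% of all genes. TIP1 had 3634, 3652 and 3642 CPM at time point 1 and 11654, 10121 and 10031 CPM at time point 5 in W89A, against 2472, 2240.0 and 2489.5 CPM at time point 1 and 17382, 16557 and 17969 CPM at time point 5 in WT. None of 13 daughter cell separation genes was called (median -0.52). At an adjusted p under 0.05 (edgeR), all 13 were lower at time point 1 in W89A and 7 were in WT. Among all 6124 genes, 1248 were lower in W89A and 1797 in WT. Counts within each strain do not test the strain difference. DSE4 had the smallest p of that list, with -0.78 ± 0.27 (adjusted p = 0.063, edgeR). None of 11 histone genes was called (median 0.35), whereas 6 were called positive without the first-cycle WT library of time point 1. HHT2, a histone H3 gene, had 428, 457 and 404 CPM at time point 1 and 411, 437 and 400.3 CPM at time point 5 in W89A and 498, 295 and 333 CPM at time point 1 and 522, 493 and 591 CPM at time point 5 in WT (strain difference 0.56 ± 0.23, adjusted p = 0.11).

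In the complexes that hold Yaf9, 1 gene was called. Of 15 genes of SWR1 and HTZ1 none was called (median -0.04, range -2.07 to 0.38). Of 13 NuA4 genes 1 was called, EAF1, the platform subunit of that complex. The shares called in either direction were 0% and 7.69%, below the 13.6% of all genes. EAF1 had 52, 64.8 and 52.9 CPM at time point 1 and 98.9, 91.6 and 82.4 CPM at time point 5 in W89A, against 25.6, 32.1 and 26 CPM at time point 1 and 80.9, 94.9 and 83 CPM at time point 5 in WT, a strain difference of 0.94 ± 0.17 (adjusted p = 0.0016, edgeR), and it overlaps the open reading frame YDR360W. HTZ1 had 0.35 ± 0.17 (adjusted p = 0.2). It was called, as the 1 call of that list, without the first-cycle WT library of time point 1, with 0.49 (adjusted p = 0.048), and with W89A20 in place of W89A19 its adjusted p was 0.57, the highest of the alternatives. SWR1, the catalytic subunit, had 0.07 ± 0.17 (adjusted p = 0.82), but its level was higher in W89A than in WT at both time points, by 0.71 at time point 1 and 0.64 at time point 5 (log2, adjusted p = 0.001 and 0.0035). The other YEATS domain genes, TAF14 and SAS5, had -0.10 ± 0.15 and 0.08 ± 0.16 (adjusted p = 0.72 and 0.8). Of 55 other chromatin modifier genes 3 were negative, the remodeler FUN30 with -0.91 ± 0.19, the deacetylase HDA1 with -0.76 ± 0.16 and the methyltransferase SET2 with -0.55 ± 0.18. That share of 5.45% was below the 7.94% called negative among all genes.

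In 27 of the 39 gene lists, long and short, the count of called members moved by over 1.5 times in at least 1 of the 12 fits that left out 1 library. In the other 12 lists it did not. Ribosome biogenesis stayed between 101 and 119 called genes when 1 library was left out, and amino acid synthesis between 26 and 37. Trehalose and glycogen ranged between 5 and 14, with 5 or 6 called without the W89A libraries of cycles 2 and 3 at time point 1, those of cycles 1 and 2 at time point 5, or the third-cycle WT library of time point 5. RNA polymerases I and III gave 6 to 9 called genes without the first-cycle WT library of time point 1, the second-cycle WT library of time point 5, or the second- or third-cycle W89A library of time point 1. Translation factors gave 8 to 10 without the first- or second-cycle W89A library of time point 5, the third-cycle W89A library of time point 1 or the third-cycle WT library of time point 5. Sulfur genes gave 6 or 7 without the first- or second-cycle W89A library of time point 5 or the second-cycle W89A library of time point 1. Oxidative stress genes gave 4 without W89A19, and peroxisome genes 7 without the second-cycle W89A library of time point 1. Without the second-cycle WT library of time point 1, 22 cytosolic ribosomal protein genes were called, against 0 to 2 without any other library, and without its third-cycle library 8 daughter cell separation genes were. Respiratory chain genes ranged between 1 and 8 called, chaperones between 3 and 10, cell wall genes between 2 and 6, and autophagy genes and vacuolar proteases between 2 and 5. With all 30 libraries or with W89A20 in place of W89A19, RNA polymerase genes had no calls. Nucleotide synthesis had 1 call in each of these fits, the positive gene SDT1, and no negative call. At least 1 member was called in 34 of the 39 lists in the fit reported here, in 11 with W89A20 and in 15 with all 30 libraries.

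**Figure D4:**
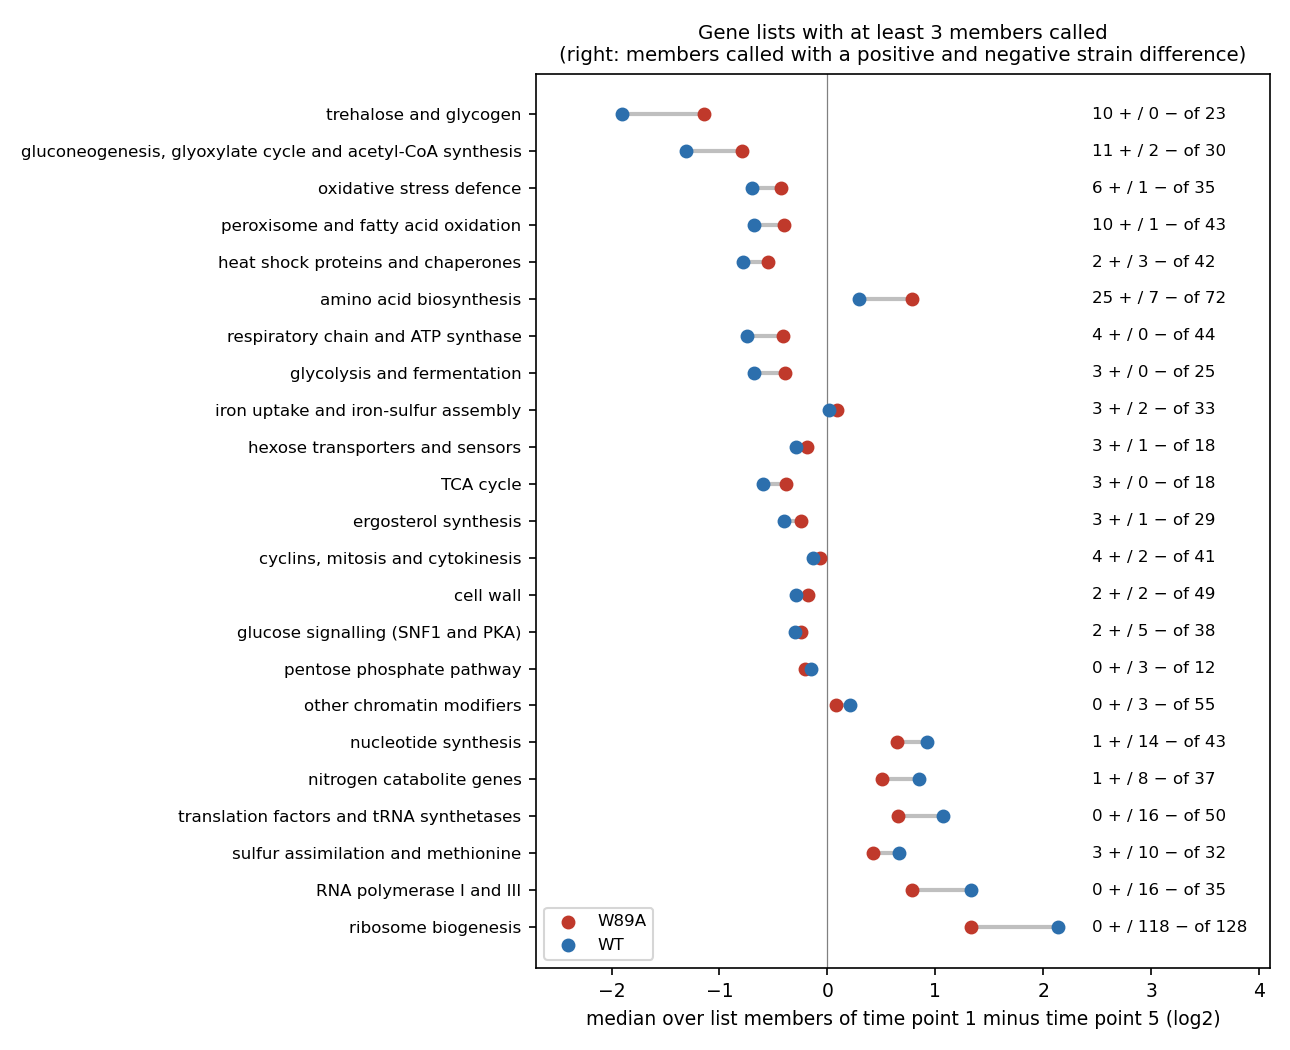
Median log2 change at time point 1 over time point 5 in W89A (red) and WT (blue) for each gene list with at least 3 called members, ordered by median strain difference; the numbers at the right are the members called with a positive and with a negative strain difference, of those tested. Ribosome biogenesis has the largest gap among the lists that are higher at time point 1, and trehalose and glycogen among those that are lower, while amino acid synthesis has medians above 0 in both strains with the W89A median the higher.

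**Figure D5:**
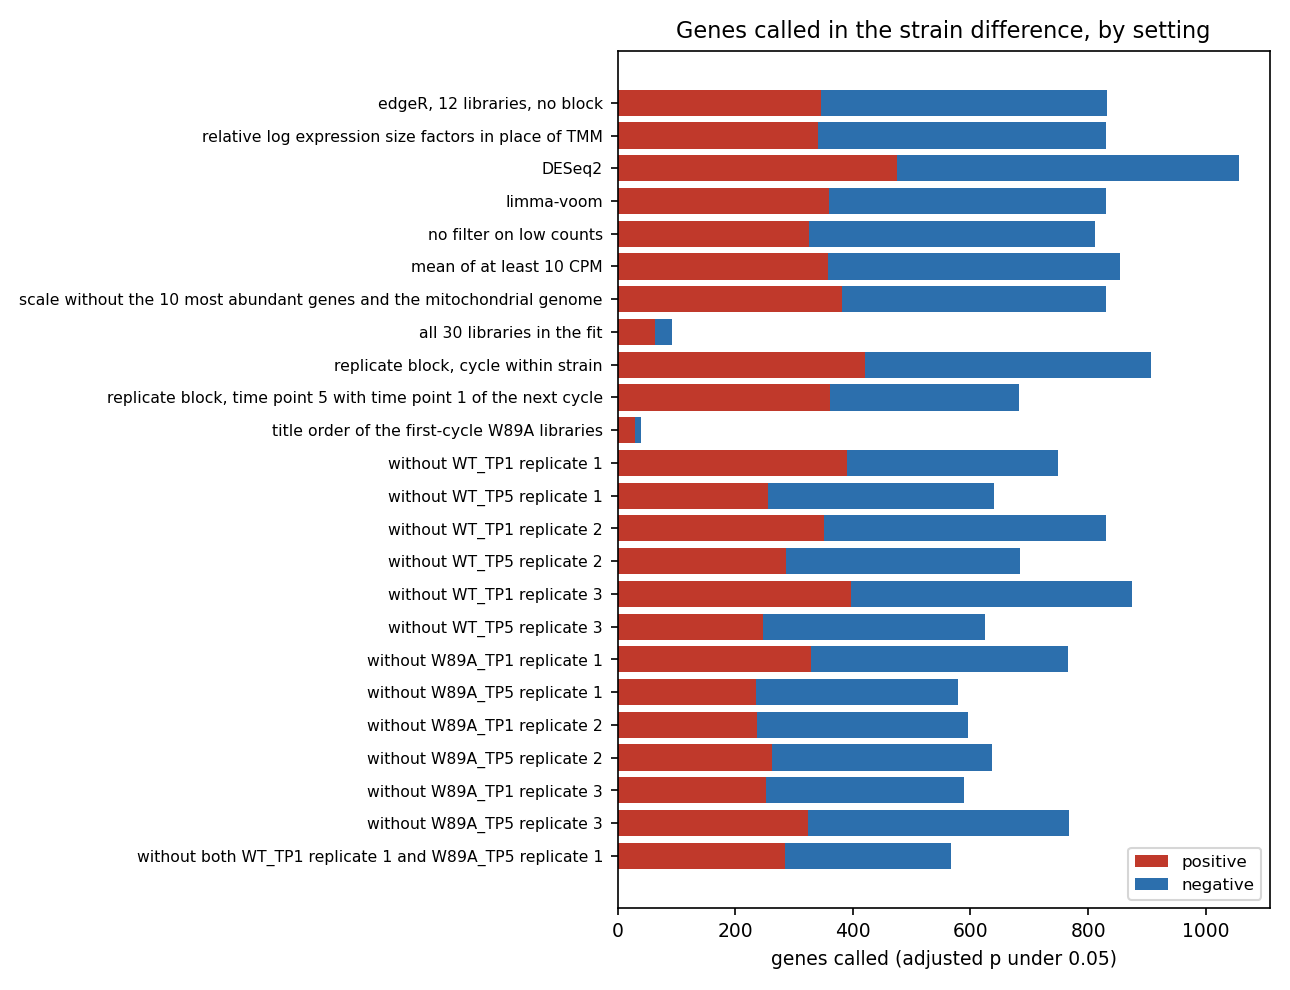
Number of genes called for the strain difference under the reported fit and each alternative setting, split into positive (red) and negative (blue) differences. Most settings give 567 to 1056 genes, and the fits with all 30 libraries and with the first-cycle W89A libraries taken in title order give 92 and 39.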

How the data were processed

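RNA-seq counts per gene were deposited by the authors for 30 libraries, and 12 were used. The 7127 features were counted without normalisation. For the aligner, counter, strand setting and annotation nothing is given in the sources used here. Per the submitters' processing notes the build is mm9, a mouse build, whereas the gene names and the coordinates in the deposited tables are those of yeast. Of 5921 genes compared, 5912 had the R64 coordinates of RefSeq. The authors' deposited tables also hold a normalised signal, FPKM values, log2 fold changes and p-values of their own comparisons, none of which was used as a result. Their counts for time point 5 place W89A19 there, and this placement was followed.

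Genes were filtered with filterByExpr of edgeR 4.0.16 (R 4.3.3), which kept 6124 and removed 1003, and scaled with TMM factors of 0.892 to 1.163. The strain difference was tested with the edgeR quasi-likelihood test over 4 groups of 3 libraries with no covariate, and p-values were adjusted by the Benjamini-Hochberg method over all genes tested at a threshold of 0.05. Simulated counts were also run through the same fit, and their outcome is not reported here. Cycle numbers were not used to pair the libraries. In W89A, deviations of same-numbered libraries correlated at -0.052 to 0.178 and those of different cycles at -0.154 to 0.158. In WT the values were 0.035 to 0.073 and -0.074 to 0.021. Deviations from means of 3 libraries cannot settle whether cycles pair the libraries. Alternatives were relative log expression factors, DESeq2 1.42.0, limma-voom (limma 3.58.1), other filters, all 30 libraries, blocks and libraries left out.

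Named genes are the 12 highest and 12 lowest strain differences among called genes with a symbol and a mean of at least 10 CPM, the 10 smallest p-values, YAF9, TAF14, SAS5, SWR1 and HTZ1, up to 4 called members of each list and direction, and up to 4 of each class of direction. A gene that this rule names is not reported here. The remaining arginine genes, GCN4, and MUP1's promoter were added after their values were seen. The question, gene lists and tests were chosen with earlier results of these data known. Promoters are from the R64 genome. Intervals of counting error are not given, since replicate spread sets the error. Near-identical copies and overlapping features are named where they touch a gene.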

Additional observations from a re-analysis of the deposited data

Results flagged for a closer look

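The transition between time points 5 and 1 differed between W89A and WT for 832 genes by the test of the strain difference itself (edgeR quasi-likelihood test). The adjusted p-values of the strain difference for genes higher in W89A than in WT relative to time point 5 were ARG1 at 0.000158, ATG41 at 2.21e-05, ARO5 at 1.98e-06, ARG4 at 2.29e-05, TMT1 at 0.000162 and ARG56 at 0.000716. Further such genes were PCL5 at 0.000158, SSU1 at 0.000162, SDT1 at 2.11e-05, CYB2 at 0.00312 and ADH5 at 2.21e-05. For genes relatively lower in W89A the adjusted p-values were HXT4 at 2.21e-05, BSC1 at 0.0403, GNP1 at 0.00237, MUP1 at 0.000162, DAL5 at 0.000162 and GFD2 at 0.000291, and also REX4 at 0.000227, DAL7 at 0.000111, ATC1 at 0.000295, BMT5 at 0.000543, MEP2 at 0.00549 and DHR2 at 0.000681. Among the smallest p-values were in addition YHI9 at 2.11e-05, RIB5 at 5.8e-05, BIO3 at 5.8e-05 and ZPS1 at 6.44e-05. No explanation of these differences was tested.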

How the results depend on the processing

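The number of genes called for the strain difference stayed within 1.5 times of 832 under other scalings, tools and filters: 830 with relative log expression factors, 1056 with DESeq2, 831 with limma-voom, 812 without a filter and 854 with a mean of at least 10 CPM. It was 92 with all 30 libraries in the fit (63 positive, 29 negative) and 39 with W89A20 in place of W89A19 (30 positive, 9 negative), against 346 positive and 486 negative. The cause was not tested. Leaving out each library in turn gave 579 to 875 genes for the strain difference, 2312 to 2882 for W89A and 3459 to 3735 for WT. HXK1 changed sign with W89A20, to -0.16 (adjusted p = 0.957), as did KAR4, to -0.11 (adjusted p = 0.937). With cycle as a replicate block the counts were 907 for the strain difference, 2754 for W89A and 3762 for WT, and with time point 5 paired to time point 1 of the next cycle 682, 2254 and 3268. Strain and culture are confounded, replicates are cycles, and 3 per group limit the precision.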
